A study of Homo sapiens with 14 samples.

Results

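In both pooled screens the sgRNAs named for EGFR, BRAF and AKT1 were followed, 13 of the 9077 sgRNAs measured. They were taken by name, as every sgRNA whose identifier begins with one of these gene symbols as a whole word, and comprised 3 EGFR, 5 BRAF and 5 AKT1 sgRNAs. According to the methods of the study, sgRNAs named for oncogenes and tumour suppressors were added to a library against m6A sites so that a cytosine base editor would write premature stop codons into coding sequence. The first screen used A549, a human lung carcinoma line, carrying lentiviral FNLS-BE3, a Cas9 nickase fused to a cytosine deaminase that changes C to T. After puromycin selection the cells were infected with the library at a low multiplicity and selected with blasticidin, then sampled at day 0 (1 library) and at days 10, 20 and 30 of culture (2 libraries each). The second screen used H1, a human embryonic stem cell line, carrying FNLS-ABE7.10(AW), an adenine base editor that changes A to G, infected and selected in the same way as a whole population and not as 1 clone. These cells were taken through 3 days of definitive endoderm differentiation and sorted for the lowest (CXCR4-) and highest (CXCR4+) staining of CXCR4, a chemokine receptor that marks definitive endoderm, with 3 libraries of each from 3 screens. The stop codon design applies to the cytosine editor of the A549 screen alone, and how often the editors changed the sites of these 13 sgRNAs was not analysed here. The controls were 1000 non-targeting sgRNAs carried in the same cultures.

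The 3 genes lie along the route from a growth factor at the cell surface to proliferation and survival. EGFR is a receptor tyrosine kinase that dimerises on binding epidermal growth factor and related ligands. It passes the signal on through RAS to the RAF kinases, of which BRAF is 1 and whose substrate is the kinase MEK, and through phosphatidylinositol 3-kinase to AKT1, a serine/threonine kinase that promotes survival and protein synthesis. MYC, a transcription factor whose level is raised by both branches, is needed for proliferation in many cell types. In lung adenocarcinoma, mutation of this pathway is frequent, and in human pluripotent cells receptor tyrosine kinase and AKT signalling take part in the maintenance of the undifferentiated state.

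On GRCh37, the build used in the design of the library, EGFR occupies chromosome 7 from 55086710 to 55279321 on the plus strand, BRAF chromosome 7 from 140419127 to 140624729 on the minus strand, and AKT1 chromosome 14 from 105235686 to 105262088 on the minus strand. A C-to-T change on the coding strand turns CAA, CAG and CGA into stop codons, and 1 on the opposite strand does the same to TGG. In the reference transcripts the EGFR coding sequence holds 70 such codons among 1210 in 28 coding exons, that of BRAF 62 among 766 in 18 coding exons, and that of AKT1 25 among 480 in 13 coding exons. Which of these codons each of the 13 sgRNAs addresses was not analysed here, nor whether a site lies in the kinase domain.

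The values are normalized sgRNA counts, which are read counts times a factor for the library. The A549 libraries held between 14925937 and 16457222 reads and the H1 libraries between 8076271 and 11341078. All 13 sgRNAs were well represented, with normalized counts from 721 to 5388 in A549 and from 566 to 3324 in H1. Read counting alone gave an LFC, the log2 of the ratio of 2 libraries after adding 1 to each value, a standard error of 0.028 to 0.066 for these sgRNAs in A549 and 0.036 to 0.087 in H1. This covers counting error only, since copies made by PCR were not collapsed to molecules. The spread of the non-targeting sgRNAs was far wider, with an SD of the LFC at day 30 of 0.47 and 0.48 in the 2 libraries.

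With all A549 libraries used, none of the 13 sgRNAs passed the threshold on the mean LFC at day 30 or on the adjusted limma p. The question was whether stop codons written into growth signalling genes deplete or enrich the cells carrying them, and the 2 most displaced sgRNAs, both named for EGFR, lay on opposite sides of day 0. By the mean LFC of the 2 day 30 libraries over day 0, EGFR-1 stood highest (0.85 ± 0.36, SD, n = 2) and EGFR-2 lowest (-0.85 ± 0.35, SD, n = 2). No member was beyond 1 in size, against 1.52% of all sgRNAs below -1 and 0.705% above 1, and 1.0% of the non-targeting sgRNAs on each side. With every library rescaled to the same total the numbers of all sgRNAs beyond these limits changed from 138 below and 64 above to 162 below and 42 above, and those of the members stayed at 0. In limma over all 7 libraries 0 members passed at an adjusted p under 0.05 in either direction at day 10, 20 or 30. The share of all sgRNAs that passed was 0.0% in each case apart from 0.011% higher at day 30. At an unadjusted p under 0.05 0 members were called lower or higher at day 10, where 0.342% and 1.06% of all sgRNAs were, or at day 20, where 0.881% and 1.91% were. On day 30 there were 1 lower member, EGFR-2, and 1 higher member, EGFR-1. The shares of all sgRNAs called so at day 30 were 5.65% lower and 7.38% higher, near those of the members. The smallest adjusted p of any member, over the days and all alternative fits, was 0.0679. The p values rest on the spread between the 2 libraries of days 10, 20 and 30. Day 0, with 1 library, adds nothing to that spread, although each comparison uses it. The sources do not say when the 2 replicates of a day were separated.

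EGFR-2 was the member furthest below day 0. Its normalized count was 1546 at day 0, then 1294 and 1217 at day 10, 1145 and 1078 on day 20 and 721 and 1018 at day 30. All 6 later libraries lay under day 0, and at each later day both libraries lay under both of the day before. All 6 were compared with the same day 0 library. How often all sgRNAs showed either pattern was not counted. The LFCs at day 30 were -1.10 in replicate 1 and -0.60 in replicate 2. Replicate 1 was thus below the central 95% of the non-targeting sgRNAs in that library (-0.96 to 0.88), and replicate 2 was inside it (-0.96 to 0.89). By the mean, 22 of the 1000 non-targeting sgRNAs lay lower, against 82 at day 10 and 32 at day 20. The limma interval at day 30 ran from -1.52 to -0.19 with an adjusted p of 0.309, so the difference did not pass the threshold. With the library of replicate 1 left out the day 30 value was -0.60, and with that of replicate 2 left out it was -1.10.

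EGFR-1 was above day 0 in 5 of 6 later libraries, and how often all sgRNAs were so was not counted. Its normalized count was 2089 at day 0, then 2988 and 1986 at day 10, 2806 and 2669 on day 20 and 3158 and 4485 at day 30. The 2 day 30 libraries held 1.51 and 2.15 times the day 0 value, LFCs of 0.60 and 1.10, of which the second lay above the central 95% of the non-targeting sgRNAs. By the mean, 983 of the 1000 non-targeting sgRNAs lay lower at day 30, against 812 at day 10. The interval ran from 0.20 to 1.499 with an adjusted limma p of 0.308.

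The ratio of EGFR-1 to EGFR-2 within a library does not depend on the scaling. It was 1.35 at day 0, 2.31 and 1.63 at day 10, 2.45 and 2.48 on day 20 and 4.38 and 4.41 at day 30. The day 30 replicates thus differed little in this ratio, although in replicate 1 the larger part of it came from a low EGFR-2 and in replicate 2 from a high EGFR-1. The pair was singled out after its values were seen, and the ratio was not tested. EGFR-3 had a normalized count of 3312 at day 0, 3121 and 3092 at day 10, 3783 and 2793 on day 20 and 2359 and 2616 at day 30. It was split at day 20 and under day 0 in both libraries at day 30, with a mean LFC of -0.41 ± 0.11 (SD, n = 2), an interval of -0.89 to 0.06 and an adjusted limma p of 0.436. Over the 3 EGFR sgRNAs the mean LFC at day 30 was -0.33 in replicate 1 and 0.05 in replicate 2, with SDs over sgRNAs of 0.86 and 0.92, so that the sgRNAs of this receptor had no common direction.

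The 5 BRAF sgRNAs had mean LFCs at day 30 from -0.40 to -0.04. BRAF-2 and BRAF-5 were below day 0 in all 6 later libraries, which share that day 0 library. The share of all sgRNAs that were so was not counted. The normalized count of BRAF-2 was 1765 at day 0, 1660 and 1499 at day 10, 1667 and 1303 on day 20 and 1400 and 1434 at day 30. Its day 30 libraries held 0.793 and 0.813 times the day 0 count. The mean LFC of -0.32 ± 0.02 (SD, n = 2) was nevertheless inside the non-targeting range, with 194 of 1000 controls lower. BRAF-4 had the largest disagreement between replicates of any member. Its normalized counts were 2200, 2066 and 2467 on days 10, 20 and 30 of replicate 1 and 1539, 1450 and 1060 in replicate 2, from 2128 at day 0. Replicate 1 stayed near or above day 0 while replicate 2 was lower at every day, and the final LFCs were 0.21 and -1.004. The difference between replicates at day 30, 1.22 on the log2 scale, was exceeded in size by 17 of the 1000 non-targeting sgRNAs. The mean LFC of -0.40 ± 0.86 (SD, n = 2) therefore rests on which replicate is read. Without the replicate 1 library it is -1.004, and without the replicate 2 library 0.21.

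The remaining BRAF sgRNAs stayed close to day 0. BRAF-1 had a normalized count of 3056 at day 0 and of 2881 and 3085 at day 30, a mean LFC of -0.04 ± 0.07. BRAF-3 was at 1302 at day 0 and at 1225 and 1061 at day 30, a mean LFC of -0.19 ± 0.15. BRAF-5 was at 3104 at day 0 and at 3054 and 2963 at day 30, a mean LFC of -0.05 ± 0.03 (SD, n = 2 for each). Over the 5 sgRNAs the mean LFC at day 30 was -0.06 in replicate 1 and -0.33 in replicate 2, and BRAF-4 was the lowest of them in replicate 2.

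The 5 AKT1 sgRNAs had mean LFCs at day 30 from -0.18 to 0.31. AKT1-1, the most abundant member, had a normalized count of 4898 at day 0, 4522 and 4408 at day 10, 4668 and 5130 on day 20 and 5314 and 5388 at day 30. It lay under day 0 in both libraries at day 10 and over it in both at day 30, a mean LFC of 0.13 ± 0.01 (SD, n = 2). AKT1-3 was the only AKT1 sgRNA below day 0 in all 6 later libraries, and the share of all sgRNAs that were so was not counted. It had a normalized count of 1669 at day 0 and of 1435 and 1512 at day 30, and a mean LFC of -0.18 ± 0.05. AKT1-4 had the highest mean of the 5, at 0.31 ± 0.47. Its normalized count was 1473 at day 0, 1410 and 1634 at day 10, 1630 and 1790 on day 20 and 1450 and 2308 at day 30. Replicate 1 was back at the day 0 level at day 30 and replicate 2 was the highest of the 7 libraries, so the mean is set by replicate 2, without which it is -0.02. AKT1-2 was at 1342 at day 0 and at 1510 and 1389 at day 30, and AKT1-5 at 2676 and at 2325 and 3120, mean LFCs of 0.11 ± 0.09 and 0.01 ± 0.30. For the 10 BRAF and AKT1 sgRNAs the 95% limma interval at day 30 contained 0, and over all 13 members the intervals reached from -1.52 to 1.499.

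By direction, 9 of the 13 were below day 0 in both day 10 libraries and 0 above it in both, and the other 4 were split. Of all sgRNAs 33.3% were below and 34.5% above, and of the non-targeting sgRNAs 29.9% and 36.5%. The displacement was small, with a median of the mean LFC over members of -0.09 against 0.00 over all sgRNAs, and every later library was compared with the same day 0 library. At days 20 and 30 there were 6 below and 3 above in both libraries, where the shares of all sgRNAs were 33.1% and 33.7% on day 20 and 31.6% and 32.4% on day 30. The medians of the members were then -0.03 and -0.05. After rescaling to the same total the day 30 numbers were 7 below and 2 above, with AKT1-2 no longer above and BRAF-1 now below. After rescaling to the non-targeting median they were 7 below and 3 above, with AKT1-2 still above, and neither rescaling changed the day 10 or day 20 numbers. No member left the central 95% of the non-targeting sgRNAs in both libraries of a day, on either side. Of all sgRNAs 0.848% did so below and 0.771% above at day 10, 0.672% and 0.529% on day 20 and 0.683% and 0.628% at day 30. In at least 1 library of day 30 EGFR-1, EGFR-2 and BRAF-4 did, a looser criterion to which the shares above do not apply. The share of all sgRNAs meeting it was not counted, so no excess among the members is read from it.

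From day 10 to day 30 EGFR-1 had the highest difference of the 13, at 0.63 on the LFC scale, and EGFR-2 the lowest, at -0.55. The replicates contributed unequally. The LFC of EGFR-1 went from 0.52 to 0.60 in replicate 1 and from -0.07 to 1.10 in replicate 2. That of EGFR-2 went from -0.26 to -1.10 in replicate 1 and from -0.34 to -0.60 in replicate 2. At an unadjusted limma p under 0.05 there were 2 higher members, EGFR-1 and AKT1-1, where 5.76% of all sgRNAs were called, and 1 lower, EGFR-2, where 5.08% were. None passed after adjustment in this limma fit, which had no replicate block, with adjusted p values of 0.409, 0.431 and 0.456. Both of these days hold replicates 1 and 2, but fits with a replicate block are not given here for this difference.

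Of a list of growth signalling genes set up for comparison, MYC is the one whose sgRNAs can be placed beside these. Its sgRNAs MYC-1, MYC-2 and MYC-3 had mean LFCs of -1.68, -1.72 and -2.46 at day 10 and of -2.61 ± 0.92, -4.79 ± 3.32 and -6.67 ± 1.71 (SD, n = 2) at day 30. At each of these days 0 of the 1000 non-targeting sgRNAs lay lower than any of the 3. MYC-4 had a mean LFC of -0.06 ± 1.05 at day 30. EGFR-2, the lowest of the 13, was at -0.30 at day 10 and -0.85 at day 30. The difference between the MYC and the other sgRNAs was not tested. In the main limma fit, without a block, none of the 4 MYC sgRNAs passed either, with adjusted p values from 0.232 to 0.970. In limma with a linear trend over days, also without a block, MYC-3 passed at an adjusted p of 0.00975. The other MYC sgRNAs and the 13 members did not pass in that fit. Fits with a library left out are not given here for MYC. With the replicate as a fixed block, MYC-1 passed at adjusted limma p values of 0.0486 (day 0 placed in replicate 1) and 0.0304 (day 0 in replicate 2), and MYC-3 at 0.0185 and 0.0304. In these fits MYC-2 and MYC-4 did not pass, nor did any of the 13, whose lowest values were 0.0884 and 0.108. With the replicate as a random effect instead, none of the 4 MYC sgRNAs passed, and the lowest adjusted limma p, that of MYC-3, was 0.0980.

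In the H1 screen, which asked which sgRNAs shift the balance between CXCR4+ and CXCR4- cells, 0 of the 13 sgRNAs were enriched in either population. All 13 passed the filter on a mean normalized count of 200 in each population, which 9044 sgRNAs passed in all. Enrichment required a one-sided limma p under 0.05 and a median LFC, CXCR4+ over CXCR4-, beyond 0.58 in size. By that rule 1.74% of all sgRNAs were enriched in CXCR4- cells and 2.05% in CXCR4+ cells. At a two-sided unadjusted limma p under 0.05 there were also 0 members, against 1.66% of all sgRNAs on the CXCR4- side and 2.1% on the CXCR4+ side. No adjusted p of a member was under 0.893 in any fit. The 39 LFCs of the members, 13 in each of 3 screens, all lay inside the central 95% of the non-targeting sgRNAs of the same screen. Median LFCs were positive for 5 and negative for 8, with a median of -0.04. The intervals of the 13 reached from -0.89 to 1.05, and each of them contained 0.

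AKT1-4 had the highest median LFC of the 13 in H1. Its normalized counts were 665, 652 and 882 in CXCR4- cells and 966, 1131 and 925 in CXCR4+ cells of screens 1, 2 and 3. The lowest CXCR4+ value was above the highest CXCR4- value, which held for 1 of the 13 members and for 8.88% of all sgRNAs. The LFCs were 0.54, 0.79 and 0.07, a median of 0.54 with an SD of 0.37 (n = 3), and 962 of 997 non-targeting sgRNAs lay lower. The interval ran from -0.11 to 1.05, and the adjusted limma p was above 0.9 both without and with a block for the screen. Without screen 3 the median was 0.67 and the sgRNA passed the thresholds for CXCR4+ cells, whereas without screen 2 it was 0.30.

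EGFR-1 was the other member with a positive LFC in every screen, 2 of 13 where 12.3% of all sgRNAs were positive throughout. Its normalized counts were 1156, 1216 and 1450 in CXCR4- cells and 1445, 1578 and 1562 in CXCR4+ cells. The populations overlapped narrowly, and the LFCs of 0.32, 0.38 and 0.11 gave a median of 0.32 with an SD of 0.14 (n = 3). No member was negative in every screen, against 12.6% of all sgRNAs, and 11 had mixed signs. EGFR-2, the lowest of the 13 in A549, had LFCs of 0.05, -0.61 and 0.00, of which the second stood alone. EGFR-3 was the least variable, with LFCs of 0.03, -0.07 and -0.04.

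Among the BRAF sgRNAs in H1 the median LFCs ran from -0.33 for BRAF-3 to 0.13 for BRAF-4. BRAF-3 had LFCs of 0.03, -0.33 and -0.37, with 135 of 997 non-targeting sgRNAs lower by the median. BRAF-1 had LFCs of 0.38, -0.41 and -0.23 and BRAF-2 of -0.06, 0.28 and -0.52, so that the sign differed between screens of the same sgRNA. Among the AKT1 sgRNAs, AKT1-3 had LFCs of 0.45, -0.55 and -0.18, AKT1-5 of 0.49, -0.63 and 0.27 and AKT1-2 of 0.11, -0.47 and 0.25. AKT1-1 stayed nearest 0 of the 5 AKT1 sgRNAs, with LFCs of -0.09, 0.05 and -0.13. The SD over screens had a median of 0.36 over the 13 members and of 0.38 over the non-targeting sgRNAs.

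Set side by side, the 2 screens gave 11 of the 13 sgRNAs the same sign in the mean LFC of A549 at day 30 and the median LFC of H1, where 50.1% of all sgRNAs and 51.1% of the non-targeting sgRNAs had the same sign. Many of these values are close to 0, the editors differ, and Spearman's rho over the 13 was 0.36 (over all sgRNAs, 0.00), given as a description over sgRNAs of the same pool. EGFR-1 was the highest of the 13 in A549 and second in H1, and AKT1-4 was second in A549 and highest in H1, but neither passed the adjusted threshold in either screen. The abundance of the sgRNAs was similarly ordered in the 2 cell lines, with A549 taken at day 0 and H1 from the CXCR4- cells sorted after differentiation. Over the 13, log2 normalized counts at day 0 in A549 and the mean in CXCR4- H1 cells correlated at r = 0.97, against 0.79 over all sgRNAs.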

How the data were processed

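Reads were trimmed (Cutadapt) and assigned to sgRNAs (MAGeCK) by the authors, who deposited normalized counts, 1 table for each screen, and these were treated as a signal per sgRNA. The submitters' processing notes also name CASAVA 1.4. The values of each library proved to be multiples of 1 step (100% within 0.05 reads), and the number of steps gave the depth. An H1 library from before differentiation, and the results of some sgRNAs of other genes, are not reported here. Authors' own columns of fold changes and p values in the supplementary tables were not used.

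LFCs were taken after a pseudocount of 1. limma 3.58.1 (R 4.3.3) was fitted with a variance trend over all 7 A549 libraries (9077 sgRNAs, group means) and over the 6 sorted H1 libraries (9044 sgRNAs with a mean of at least 200 in both populations), with two-sided p values adjusted by Benjamini-Hochberg over all sgRNAs. The script was tested on simulated data. Other steps used Python 3.11.15, numpy 2.4.6, pandas 2.3.3 and scipy 1.17.1. Gene positions and coding sequences came from a GENCODE annotation of GRCh37. All 13 sgRNAs are described, so no gene was selected by its values except where stated. The members and the gene lists were chosen with earlier results of these data known.

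By the methods, both populations of an H1 screen stem from 1 infection, and the deviations of the 3 pairs from the mean of each population had correlations of 0.085, 0.073 and 0.293. In A549, differences between replicates 1 and 2 correlated at 0.570 (days 10 and 20), 0.636 (days 20 and 30) and 0.394 (days 10 and 30), so the number follows the libraries, while day 0 has no counterpart. Fits with the replicate as a block, other pseudocounts, filters and scalings, no variance trend, a linear trend over days and each replicate left out were the alternatives.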

Additional observations from a re-analysis of the deposited data

Results flagged for a closer look

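Among the 13 sgRNAs, 3 had both A549 libraries of 1 day on the opposite side of day 0 from both libraries of another day, which singled them out for a closer look. How often all sgRNAs or the non-targeting sgRNAs did so was not counted, so the number is not read as unusual. AKT1-1 was below day 0 in both day 10 libraries and above it in both day 30 libraries, and its mean LFC at day 30 minus that at day 10 was 0.26 (limma, adjusted p = 0.431). AKT1-2 was below day 0 at days 10 and 20 and above it at day 30. Its mean LFC at day 30 exceeded that at day 10 by 0.15 (limma, adjusted p = 0.827) and that at day 20 by 0.34 (limma, adjusted p = 0.881), and after rescaling to the same total it was no longer above day 0 in both day 30 libraries, whereas after rescaling to the non-targeting median it was. BRAF-1 was below day 0 at day 10 and above it at day 20, and its mean LFC at day 20 exceeded that at day 10 by 0.16, a difference that was not tested. Groups held 1 to 3 libraries, so that no library could be examined as an outlier within its group.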

How the results depend on the processing

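In the A549 comparisons with day 0 and between the H1 populations, no member passed an adjusted threshold under any setting. Values near 0 could change sign (BRAF-5 from -0.05 to 0.02 in the block with day 0 in replicate 1). Of the 130 member values recomputed for A549 under other settings, 14 moved by at least 1 SD between the replicates of the same sgRNA, all of them values of BRAF-2, BRAF-5 and AKT1-1, whose SDs are small, and of the 104 for H1 none did. By size, the block moved BRAF-4 from -0.40 to -0.02 (day 0 in replicate 1) or -0.77 (day 0 in replicate 2) and AKT1-4 from 0.31 to 0.14 or 0.48, within their wide SDs. With the replicate as a block no adjusted call of the 13 changed in these comparisons of either screen. Over all sgRNAs, the block gave 104 adjusted calls at day 30 with day 0 placed in replicate 1 and 234 with it in replicate 2, against 1 in the main fit without a block, and 3 against 0 in H1. With the A549 replicate as a random effect there was 1. With day 0 in replicate 2 of the block, 4 members against 2 had an unadjusted limma p under 0.05 and 101 sgRNAs had a mean LFC above 1 against 64. Rescaling to the same total or to the non-targeting median gave 42 sgRNAs above 1. Adjusted calls over all sgRNAs numbered 0 without a variance trend and 152 with a linear trend over days. With 1 A549 library left out at a time, the members beyond 1 in size at day 30 numbered 0 to 2 (EGFR-1 and BRAF-4 without replicate 1 of day 30, EGFR-2 without replicate 2), members at an unadjusted p under 0.05 2 to 4, all sgRNAs below -1 138 to 277 and above 1 64 to 149, and adjusted calls 0 to 4. With 1 H1 screen left out, members past the thresholds numbered 0 to 1 (AKT1-4 without screen 3), all sgRNAs enriched in CXCR4- cells 208 to 334 against 157 and in CXCR4+ cells 215 to 391 against 185, and adjusted calls 0 to 1. The cause of these shifts was not tested, beyond the fewer libraries left. Count models on whole reads were not run, because the deposited values were treated as normalized. With 1 day 0 library and 2 libraries a day, the limma standard error at day 30 limits what can be seen for a single sgRNA more than depth does.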
